A study of Mus musculus with 12 samples.

Results

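Tumours with the genotype IDH1WT were compared with normal mouse brain, 3 libraries against 3 of the 12 in the series, over every gene that passed a filter on low counts: 17812 of the 49671 genes in the deposited count table. The samples were taken by their labels. The gene lists used below were chosen with earlier results of these data known. The tissue was formalin fixed and paraffin embedded, and total RNA was taken from it with a kit made for such tissue. The IDH1WT tumours arose in mice with the genotype N::TVA and floxed alleles that include Cdkn2a and Atrx, and the label IDH1WT names the tumour's own genotype. The normal brains came from mice with the same floxed alleles that were TVA negative. TVA is the receptor of an avian retrovirus, and mouse cells that carry it can be infected by RCAS vectors. Whether PDGFA was also given to the IDH1WT tumours is not stated in the labels, nor are age, sex, brain region, batch, litter or the share of tumour in a block. The other tumours, 3 labelled IDH1_R132H (the mutant enzyme of human diffuse glioma) and 3 labelled PDGFA (a ligand of the receptor PDGFRA), entered the fit to share its estimate of the spread and are compared at the end. No label says that the samples of a group came from separate mice, so the p-values measure the spread between these samples only.

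Diffuse gliomas are brain tumours whose cells resemble glial progenitors and spread among the neurons and glia of the host tissue. Oligodendrocyte precursor cells are the main dividing cells of the adult brain outside its stem cell niches; they carry PDGFRA, the receptor for PDGFA, and the transcription factors OLIG2 and SOX10. Loss of Cdkn2a, which encodes inhibitors that act on the RB and p53 pathways, removes a brake on entry into the cell cycle, and ATRX is a chromatin remodeller lost in many human astrocytomas. A bulk library reads the tumour cells together with the vessels, immune cells, glia and neurons around them. A higher or lower level here cannot be told apart from a higher or lower number of the cells that carry the RNA.

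The 6 libraries held 7023188 to 14277395 counts, of which 8.08% to 15.4% lay in loci that resemble ribosomal RNA. Tumour 2 had the lowest total and also the most genes with at least 10 counts, 18018. Of the other tumours in the fit, IDH1_R132H 3 had 47.7% and PDGFA 1 20.3% of counts in ribosomal-RNA-like loci. On the first principal component of the 6 libraries, which held 68.9% of the variance, normal brains lay at 36.2, 33.1 and 37.7 and tumours 1, 2 and 3 at -13.3, -59.3 and -34.4, so tumour 1 lay nearest to normal brain and tumour 2 farthest. The common biological coefficient of variation was 26.3% among the tumours and 13.8% among the normal brains. Normal brains 1 and 2 stood close together: the chi-square statistic divided by the number of genes was 2.59 for this pair, 30.0 and 28.9 for each with normal brain 3, and 36.1 to 49.7 between tumours. They differed by more than sampling noise, for which the value is near 1, and were counted as 2 samples as the labels give them. That does not show whether they came from separate animals. With the pair summed to 1 sample the number of genes called falls from 307 to 0. Tumour 1 also differed in genes that track sex: Xist stood at 813 CPM (read counts scaled to the library's size) there and at 1.83 to 24.9 in the other 5 libraries, while Ddx3y, a Y-linked gene, stood at 0.133 CPM in tumour 1 and 58.6 to 85.5 in the others. Tumour 1 is left out in turn below.

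The floxed genes and those named in the tumour genotypes were read first. Atrx was at 258, 212 and 297 CPM in tumours 1, 2 and 3 and at 329, 336 and 262 CPM in normal brains 1, 2 and 3, and the groups overlapped (log2 fold change -0.27, SE 0.16, adjusted p = 0.39). Gene-level counts do not show which exons were read, so this value does not test a deletion. Cdkn2a had 8, 3 and 5 counts in the tumours and 1 in each normal brain, too few to test. Idh1 was at 47.6, 56.3 and 39.1 CPM in the tumours against 22.5, 23.8 and 27.0 in the normal brains. The groups did not overlap, but the difference missed the threshold in edgeR (0.96, SE 0.24, adjusted p = 0.064). It passed with DESeq2 (adjusted p = 0.00817) and in the 6 libraries alone (adjusted p = 0.0101), and its adjusted p ranged from 0.00289 with voom to 0.27994 without tumour 2 over all the alternatives run. Counts per gene do not separate the endogenous Idh1 from any introduced copy. Idh1 was at 53.7, 52.2 and 70.7 CPM in the IDH1_R132H tumours and 22.2, 36.2 and 46.7 CPM in the PDGFA tumours. IDH1WT tumours less the mean of those groups gave 0.07 (SE 0.21, unadjusted p = 0.75 in edgeR). The source of the Idh1 difference from normal brain was not tested. Pdgfa read 44.3, 78.7 and 58.9 CPM in the tumours and 30.5, 28.9 and 28.1 CPM in the normal brains, again without overlap and with adjusted p = 0.075 (1.05, SE 0.28).

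Of the 17812 genes tested, 307 (1.72%) differed between IDH1WT tumours and normal brain at an adjusted p under 0.05 in edgeR's quasi-likelihood test. Of these, 280 (1.57% of genes tested) rose and 27 (0.152%) fell in the tumours. Among the risers 273 changed at least 2-fold and 108 at least 8-fold, with a median log2 fold change of 2.56; of the fallers 14 changed at least 2-fold, with a median of -1.02. All 280 risers had every tumour above every normal brain, a pattern shown by 17.4% of all genes. The calls came from these same values, so the pattern is not separate evidence for them. The reverse pattern, shown by 14.5% of all genes, held for 26 of the 27 fallers. The exception was A830036E02Rik, at 36.0 and 40.2 CPM in normal brains 1 and 2 but 0.525 CPM in normal brain 3, below 2 of the 3 tumours at 0.795, 1.22 and 0.188 CPM.

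Most risers were graded between the tumours: in 252 of the 280, tumour 1 was the lowest of the 3, and in 236 tumour 2 was the highest. In 22 of the 27 fallers tumour 2 was the lowest. The number of calls depended on single libraries. It was 0 without tumour 2, without tumour 3 or without normal brain 2, 1 without normal brain 1 or 3, and 0 with normal brains 1 and 2 summed, but 687 without tumour 1. The libraries of the other tumour groups, which enter this fit through the shared estimate of the spread, moved it as well, in fits added after the data were seen: it was 1090 without PDGFA 1, 1006 without PDGFA 3, 161 without IDH1_R132H 1 and 140 without IDH1_R132H 2. At an unadjusted p under 0.05 the fit gave 3374 genes, and 1890 to 2957 in those leave-one-out fits that gave 0 or 1 call. DESeq2 called 995 higher (5.59%) and 276 lower (1.55%). On the 6 libraries alone edgeR called 1111 higher (6.64%) and 315 lower (1.88%), and limma voom with sample quality weights (voom below) called 1823 higher (10.2%) and 1185 lower (6.65%) on all 12. Of the 307 genes, 306 were also called by DESeq2 and 304 in the 6 libraries. Counts of list members called, given below, become 0 when tumour 2, tumour 3 or any 1 normal brain is left out. The shares of all genes given here for edgeR, DESeq2, the 6 libraries and voom are the background for those counts.

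**Figure D1:**
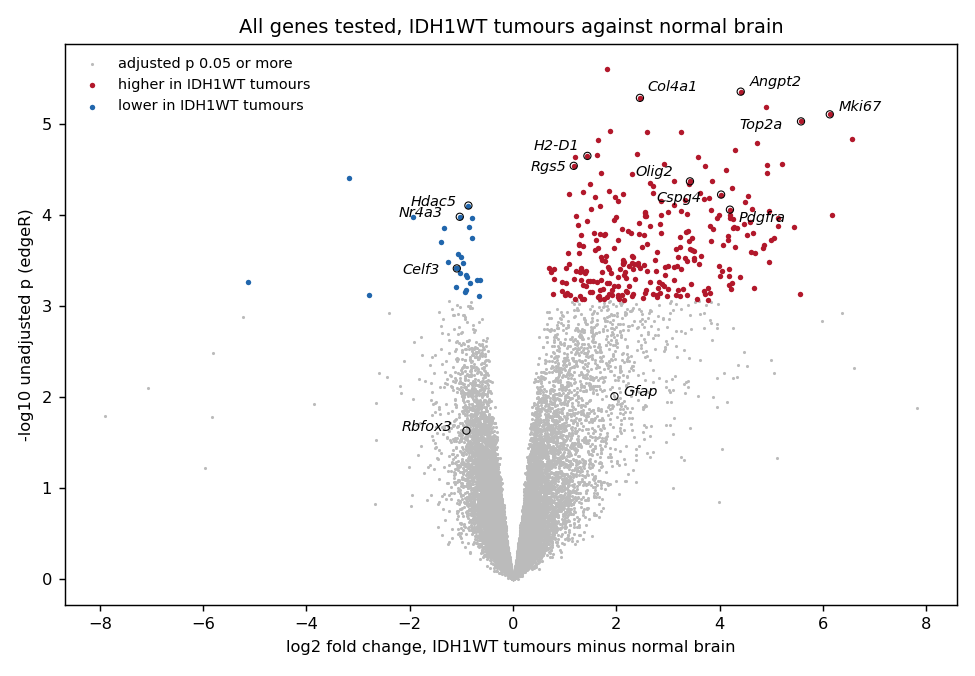
Each point is 1 of the 17812 genes, by its log2 fold change in IDH1WT tumours less normal brain (x axis) and the -log10 of its unadjusted p from edgeR (y axis). The 280 genes that rose are red and the 27 that fell blue; Mki67 lies at 6.13 and Hdac5 at -0.86, and Gfap and Rbfox3 lie in grey below the threshold.

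Of the 40 lists, mitosis had the highest median change. Of 26 mitosis genes tested, 21 rose and 0 fell (1.57% of all genes rose), and the median log2 fold change was 4.02 against -0.01 over all genes. Mki67, which encodes the Ki-67 protein that coats chromosomes in dividing cells (chr7:135689784-135716361, GRCm38), was at 51.8, 182 and 173 CPM in tumours 1, 2 and 3 and at 0.808, 3.29 and 1.66 CPM in normal brains 1, 2 and 3. The lowest tumour thus lay far above the highest normal brain, and tumour 1 well under the other 2 tumours. The log2 fold change was 6.13 (SE 0.84, adjusted p = 0.022), a 70.1-fold rise. Top2a, the topoisomerase that untangles chromosomes before they part (chr11:98992943-99024189), was at 40.4, 131 and 98.1 CPM against 1.27, 2.1952 and 2.10 CPM. It rose by 5.57 (SE 0.78, adjusted p = 0.022), with the same order of tumours as Mki67. Cenpf, a kinetochore protein (chr1:189640606-189688086), stood at 26.3, 105 and 72.455 CPM in the tumours and 2.19, 2.85 and 1.75 CPM in the normal brains, a rise of 4.91 (SE 0.77, adjusted p = 0.022). Cyclin A2 (Ccna2) rose by 4.07 (SE 0.79, adjusted p = 0.029), with tumours at 16.036, 59.3 and 42.7 CPM and normal brains at 2.89, 2.3049 and 1.84 CPM. In each of these 4 genes tumour 2 was the highest and tumour 1 the lowest tumour.

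The mitosis genes that missed the threshold were Ccnb1, Ccnb2, Bub1b, Plk1 and Anln. For 4 of them the tumours still lay above every normal brain (Plk1 3.06, adjusted p = 0.0503). Anln, a ring-forming protein of cell division that myelin-forming cells also express, overlapped at 40.4, 45.0 and 54.7 CPM in tumours against 36.0, 38.7 and 42.5 CPM (0.25, SE 0.24). The summed level of the list was 312, 976 and 775 CPM in tumours 1, 2 and 3 and 69.3, 77.5 and 66.2 CPM in the normal brains. DESeq2 called 23 of the 26 and the 6 libraries alone 24. Over the fits that leave out 1 of the 6 libraries the list's median stayed between 3.67 and 4.38; the list had 22 called risers without tumour 1 and 0 without tumour 2, tumour 3 or any 1 normal brain.

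The promoters of the 3 called mitosis genes with the smallest p and of the 3 such DNA replication genes are shown because these genes moved together and because their classes carry known promoter elements: the cell cycle homology region with CCAAT boxes for mitosis, and E2F sites for replication. Each sequence is the 250 bases before the RefSeq transcription start on GRCm38.p6, 5′ to 3′ on the gene's strand. Capitals in the mitosis promoters mark TTTGAA or CCAAT on either strand, where the reverse strand reads TTCAAA or ATTGG. The locations are chr7:135716380-135716629 (minus strand) for Mki67, chr11:99024190-99024439 (minus strand) for Top2a and chr1:189688087-189688336 (minus strand) for Cenpf.
Mki67: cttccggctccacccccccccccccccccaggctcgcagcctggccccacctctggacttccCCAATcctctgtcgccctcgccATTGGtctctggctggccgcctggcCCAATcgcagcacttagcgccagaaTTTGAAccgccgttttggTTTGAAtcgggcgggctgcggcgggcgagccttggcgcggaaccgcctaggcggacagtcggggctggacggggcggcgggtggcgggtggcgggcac
Top2a: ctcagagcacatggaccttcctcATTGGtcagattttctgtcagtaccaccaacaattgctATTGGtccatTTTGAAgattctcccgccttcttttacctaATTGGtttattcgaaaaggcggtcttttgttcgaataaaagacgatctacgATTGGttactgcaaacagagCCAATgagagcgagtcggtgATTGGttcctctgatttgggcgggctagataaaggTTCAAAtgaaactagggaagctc
Cenpf: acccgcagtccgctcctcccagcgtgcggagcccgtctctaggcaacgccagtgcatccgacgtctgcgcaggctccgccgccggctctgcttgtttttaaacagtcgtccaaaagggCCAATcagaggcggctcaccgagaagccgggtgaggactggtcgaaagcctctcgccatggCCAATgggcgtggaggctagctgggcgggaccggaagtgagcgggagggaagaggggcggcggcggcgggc

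In the replication promoters capitals mark the E2F motifs TTCCCGC and TTTGGCGC on either strand. They lie at chr17:56303087-56303336 (plus strand) for Uhrf1, chr1:128359706-128359955 (minus strand) for Mcm6 and chr12:24708004-24708253 (plus strand) for Rrm2.
Uhrf1: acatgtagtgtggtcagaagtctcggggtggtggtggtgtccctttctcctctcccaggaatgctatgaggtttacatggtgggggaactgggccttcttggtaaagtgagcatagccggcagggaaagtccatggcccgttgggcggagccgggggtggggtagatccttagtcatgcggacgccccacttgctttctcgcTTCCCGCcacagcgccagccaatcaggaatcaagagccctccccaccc
Mcm6: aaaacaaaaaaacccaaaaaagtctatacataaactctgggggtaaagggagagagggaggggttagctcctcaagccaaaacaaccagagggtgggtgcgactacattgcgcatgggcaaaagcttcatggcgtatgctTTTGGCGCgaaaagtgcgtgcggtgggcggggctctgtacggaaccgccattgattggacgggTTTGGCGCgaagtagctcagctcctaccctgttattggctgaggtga
Rrm2: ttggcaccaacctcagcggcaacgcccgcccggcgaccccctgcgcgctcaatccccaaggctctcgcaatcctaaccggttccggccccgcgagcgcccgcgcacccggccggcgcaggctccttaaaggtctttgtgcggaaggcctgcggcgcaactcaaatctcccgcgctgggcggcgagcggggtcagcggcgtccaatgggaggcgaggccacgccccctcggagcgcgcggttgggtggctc
The letters CCAAT occurred in 17 (77.3%) of the 22 mitosis promoters with an entry, against 34.5% of 27025 mouse promoters of that length, and TTTGAA in 6 (27.3%) against 16.3%. Of 21 replication promoters with an entry, 7 (33.3%) held TTCCCGC against 3.84% of all, and 3 (14.3%) held TTTGGCGC against 0.437%. The Rrm2 window held neither E2F motif as spelled here. These shares describe the lists as written, called members or not. Genes with no entry included Ccna2, Aurkb, Kif20a, Tpx2, Mcm4, Gins1 and Gins2.

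Of the 25 DNA replication genes 6 rose and 0 fell (1.57% of all genes rose), with a median of 1.75. In all 25 every tumour lay above every normal brain, which was so for 17.4% of all genes. Uhrf1, which guides maintenance DNA methylation to newly copied DNA (chr17:56303321-56323486), was at 8.48, 18.2 and 16.7 CPM in the tumours and 0.462, 0.878 and 0.788 CPM in the normal brains, a log2 fold change of 4.30 (SE 0.65, adjusted p = 0.022). Mcm6, a subunit of the replicative helicase (chr1:128331590-128359664), was at 16.036, 27.4 and 19.3 CPM against 1.27, 2.09 and 1.66 CPM (3.63, SE 0.61, adjusted p = 0.024). Rrm2, the small subunit of ribonucleotide reductase (chr12:24708241-24714146), was at 12.7, 21.1 and 19.6 CPM against 0.346, 0.878 and 0.963 CPM (4.55, SE 0.77, adjusted p = 0.024). In these 3 genes the tumours were again ordered 2, 3, 1. The other risers were Mcm3 (2.49), Rrm1 (1.69) and thymidine kinase 1, Tk1 (3.79). The call count of this list moved more than its values: 20 of 25 in DESeq2, 22 in the 6 libraries alone 10 without tumour 1, and 0 without tumour 2, tumour 3 or any 1 normal brain, while the median over the leave-one-out fits stayed between 1.59 and 1.91.

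Of 15 genes of the G1 cyclins and the RB-E2F circuit, 3 rose and 0 fell (1.57% of all genes rose), with a median of 1.5004. Cyclin D1 (Ccnd1, chr7:144929931-144939925), which starts the inactivation of RB, was at 215, 701 and 243 CPM in tumours and 28.6, 35.2 and 51.7 CPM in normal brains. All tumours lay above all normal brains, and tumour 2 was far above the other 2. The log2 fold change was 3.32 (SE 0.67, adjusted p = 0.034), and 2.57 without tumour 2. The repressors E2f8 (3.47, adjusted p = 0.027) and E2f7 (3.25, adjusted p = 0.036) also rose. Cdk4, the kinase partner of cyclin D1, was at 48.0, 73.8 and 64.5 CPM against 20.8, 22.2 and 22.8 CPM without passing (1.5004, SE 0.38, adjusted p = 0.0645). DESeq2 called 8 of the 15 and the 6 libraries alone 10. Among 16 genes of the p53 response and the CDK inhibitors, 1 rose (1.57% of all genes rose). It was Cdkn2c (3.29, SE 0.73, adjusted p = 0.045), an inhibitor of CDK4 and CDK6. The median of that list was 0.58. Cdkn1a, the p53 target p21, did not pass at 17.958, 50.2 and 57.4 CPM against 5.1968, 6.26 and 9.63 CPM (2.56, SE 0.63, adjusted p = 0.059), and Eda2r did not at 4.26 (SE 1.07, adjusted p = 0.063). DESeq2 and the 6 libraries alone each called 6 of these 16 (5.59% and 6.64% of all genes rose there). Trp53 itself read 11.3, 14.5 and 17.8 CPM against 9.01, 10.2 and 8.23 CPM (0.67, adjusted p = 0.31).

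Markers of oligodendrocyte precursors had the second highest median change. Of 16 tested, 9 rose and 0 fell (1.57% of all genes rose), the median was 3.01, and in all 16 every tumour lay above every normal brain, which was so for 17.4% of all genes. Pdgfra, the receptor for PDGFA and the marker by which these cells are sorted (chr5:75152292-75198215), was at 509.98, 1540.1 and 626 CPM in tumours 1, 2 and 3 and at 46.9, 49.8 and 49.0 CPM in the normal brains. The normal brains were nearly alike, while tumour 2 stood far above the other tumours. The log2 fold change was 4.20 (SE 0.74, adjusted p = 0.024), an 18.4-fold rise, and 3.55 without tumour 2. Cspg4, the NG2 proteoglycan of precursor cells and pericytes (chr9:56865033-56899870), rose from 20.8, 20.1 and 20.1 CPM to 192, 537 and 266 CPM (4.03, SE 0.68, adjusted p = 0.024). Olig2, the transcription factor that specifies the lineage (chr16:91225457-91228677), was at 68.3, 189 and 96.8 CPM against 12.8, 9.66 and 10.4 CPM (3.42, SE 0.56, adjusted p = 0.024). Tumour 2 was the highest in all 3 genes and tumour 1 the lowest.

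The other 6 precursor markers that rose, named here after their values were seen, were Zfp488 (4.25), Lhfpl3 (3.16), Olig1 (2.95), C1ql1 (2.87), Sox10 (2.86) and Nkx2-2 (2.57). Olig1, Olig2, Sox10, Nkx2-2 and Zfp488 encode transcription regulators of the lineage. Gpr17, a receptor of cells committed to differentiate, was at 106, 619 and 430 CPM against 25.6, 22.3 and 25.8 CPM and did not pass (3.97, SE 0.92, adjusted p = 0.052). The summed level of the 16 markers was 2012, 5771 and 2772 CPM in the tumours and 531, 509 and 529 CPM in the normal brains. DESeq2 called 15 and the 6 libraries alone all 16. The median lay between 2.40 and 3.27 over the leave-one-out fits. The fit without tumour 1 called 12 markers, and those without tumour 2, tumour 3 or any 1 normal brain 0.

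**Figure D2:**
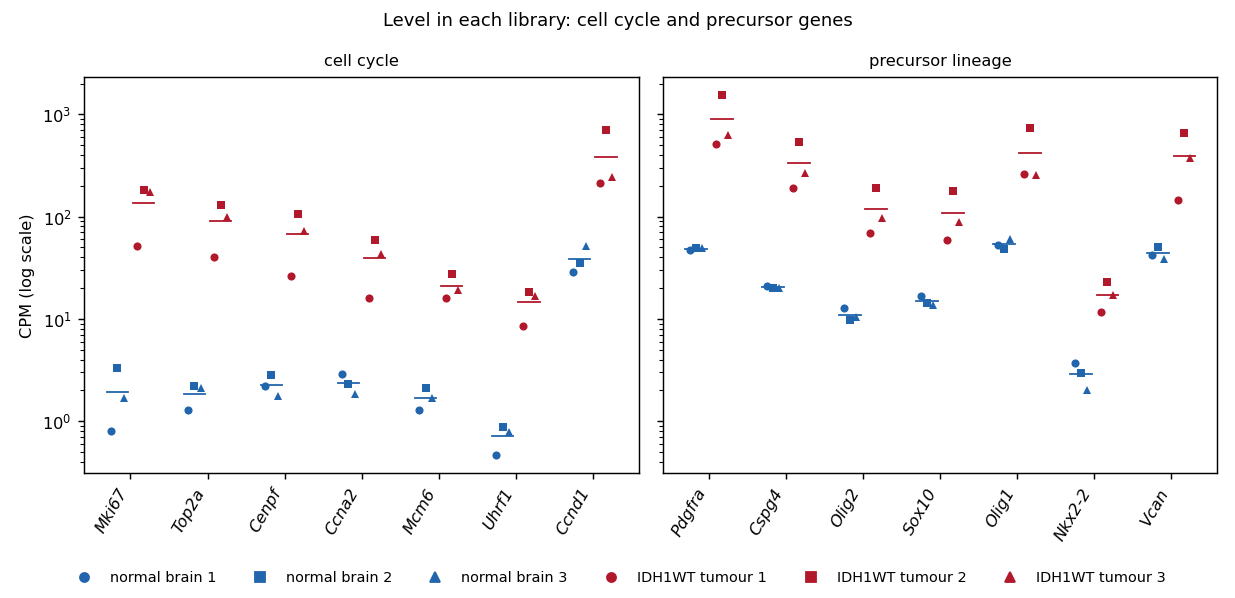
CPM of each library on a log axis for 7 cell cycle genes (left) and 7 genes of the precursor lineage (right), with normal brains in blue, IDH1WT tumours in red and a line at each group's mean. Tumour 1 (red circle) is the lowest tumour for Mki67 at 51.8 CPM yet lies above all normal brains, and tumour 2 (red square) is the highest for Pdgfra at 1540.1 CPM.

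Most myelin genes and markers of mature astrocytes did not pass the test. Of 16 genes of myelinating oligodendrocytes 1 rose and 0 fell (1.57% of all genes rose). The median was 0.00, with 8 members above 0 and 8 below. In 5 every tumour lay above every normal brain (17.4% of all genes), and in 3 below (14.5%). The riser, Enpp6 (2.32, SE 0.52, adjusted p = 0.047), marks cells that have just begun to differentiate. Bcas1, of the same early stage, was at 123, 327 and 291 CPM against 85.0, 88.8 and 89.6 CPM without passing (1.49, SE 0.35, adjusted p = 0.054). Mbp, a main protein of mature myelin, read -0.27 (SE 0.40, adjusted p = 0.76), with tumour 2 the lowest of all at 997 CPM. Among 17 astrocyte markers edgeR called 0, with 1 at an unadjusted p under 0.05, DESeq2 called 0 and voom 1; the median was -0.03. Among 12 markers of reactive astrocytes edgeR called 0, but 8 had an unadjusted p under 0.05, DESeq2 called 4 and the 6 libraries alone 8 of the 10 tested there. The median of that list was 1.42. Gfap, the intermediate filament of astrocytes, was at 353, 219.8 and 547.55 CPM against 78.2, 81.4 and 128 CPM (1.96, SE 0.64, adjusted p = 0.13). Cd44 was at 20.4, 23.9 and 50.2 CPM against 6.12, 10.8 and 7.96 CPM (1.92, SE 0.66, adjusted p = 0.14). For both genes the tumours lay above the normal brains, with tumour 3 the highest.

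Of 16 neural progenitor markers, 2 rose and 0 fell (1.57% of all genes rose), and the median was 0.85. Nes, which encodes the progenitor filament nestin, was at 40.8, 74.8 and 79.0 CPM in tumours and 10.9, 12.2 and 10.7 CPM in normal brains (2.53, SE 0.52, adjusted p = 0.036). Fabp7, a lipid-binding protein of radial glia, was at 70.6, 131 and 88.545 CPM against 6.0052, 7.13 and 19.2 CPM (3.15, SE 0.71, adjusted p = 0.047). Normal brain 3 was the highest normal brain for Fabp7, and without it the log2 fold change was 3.86. DESeq2 called 5 of this list and the 6 libraries alone 7. Sox2, a stem cell factor that astrocytes also express, did not pass at 32.9, 66.5 and 43.1 CPM against 23.2, 23.2 and 24.2 CPM (1.01, SE 0.43, adjusted p = 0.23).

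Of the 6 PDGF ligands and receptors, edgeR called Pdgfra alone, against 1.57% of all genes that rose, and DESeq2 and the 6 libraries alone each called 3, against 5.59% and 6.64% of all genes. Pdgfrb, the receptor of pericytes, was at 36.5, 58.3 and 69.9 CPM against 23.9, 20.6 and 27.6 CPM and missed the threshold (1.19, SE 0.28, adjusted p = 0.051). Of 16 genes of receptor tyrosine kinase and MAPK feedback, 2 rose (1.57% of all genes rose) and the median was 0.40. Both are Sprouty genes, feedback inhibitors switched on by the pathway: Spry1 (2.19, SE 0.49, adjusted p = 0.046) and Spry4 (2.21, SE 0.49, adjusted p = 0.047). DESeq2 called 7 of that list (5.59% of all genes rose there) and the 6 libraries alone 5 (6.64%). Egfr (-0.15, adjusted p = 0.86) and Nf1 (0.19, adjusted p = 0.55) did not pass.

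Of 16 Notch pathway genes 3 rose (1.57% of all genes rose), all of them ligands: Dll3, Dll4 and Jag1. The list's median was 1.01, and DESeq2 called 5 and the 6 libraries alone 8. Dll3, a ligand that acts within the cell to dampen Notch (chr7:28293553-28302238), was at 21.3, 62.7 and 14.961 CPM in tumours and 0.808, 0.878 and 1.05 CPM in normal brains. The tumours were all far above the normal brains, with tumour 2 the highest. The log2 fold change was 5.13 (SE 0.92, adjusted p = 0.024), and 4.28 without tumour 2. Dll4, the ligand of endothelial tip cells, was at 6.96, 10.975 and 10.445 CPM against 2.19, 2.52 and 3.06 CPM (1.85, SE 0.31, adjusted p = 0.024). Jag1 was at 20.8, 38.5 and 25.3 CPM against 12.1, 10.9 and 10.9 CPM (1.31, SE 0.27, adjusted p = 0.036).

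Among the 15 most increased abundant genes, 6 were in none of the lists. Sema3d, a secreted guidance cue (chr5:12383385-12588948), rose by 4.24 (SE 0.70, adjusted p = 0.024), from 6.58, 7.68 and 8.31 CPM to 73.952, 241 and 115 CPM, and by 3.64 without tumour 2. Mmp15, a membrane-bound metalloproteinase, rose by 3.26 (SE 0.57, adjusted p = 0.024), from 16.976, 15.9 and 17.5 CPM to 126, 239 and 116 CPM. Adam12, a membrane metalloproteinase of another family, rose by 3.40 (SE 0.65, adjusted p = 0.028), from 7.74, 4.94 and 5.25 CPM to 42.6, 100.1 and 46.7 CPM. In all 3 genes tumour 2 was the highest, as in Pdgfra. Pxdc1 (3.42), the sorting nexin Snx22 (3.37) and the signalling adaptor Traf4 (3.24) also rose. Their values leaned on tumour 2 more than most: without it they were 2.63, 2.22 and 2.54.

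Several genes of the vessel wall and its basement membrane rose. Of 22 collagen and matrix genes 8 rose and 0 fell (1.57% of all genes rose), with a median of 1.03. Col4a1, a chain of the type IV collagen that forms basement membranes (chr8:11198423-11312826), was at 196.54, 367 and 387 CPM in tumours and 52.2, 59.1 and 61.8 CPM in normal brains. Every tumour lay above every normal brain, with tumours 2 and 3 close together. The log2 fold change was 2.46 (SE 0.32, adjusted p = 0.022), a 5.49-fold rise. Nid2 (chr14:19751265-19811787), which links collagen IV to laminin, was at 15.042, 24.8 and 30.0 CPM against 3.93, 3.84 and 3.76 CPM (2.59, SE 0.37, adjusted p = 0.022). Lamc1, the common laminin gamma chain (chr1:153218922-153332786), was at 89.1, 153 and 165 CPM against 43.7, 41.4 and 45.6 CPM (1.64, SE 0.24, adjusted p = 0.022). Unlike the precursor markers, these 3 were highest in tumour 3. The matrix genes Col4a2 (1.63), Nid1 (2.31), Lama4 (2.33) and Fn1, which encodes fibronectin (2.04), rose too, and these 4 are named after their values were seen. Vcan is a proteoglycan that precursor cells also make; it was at 144, 663 and 370 CPM against 41.9, 50.6 and 38.2 CPM (3.17, SE 0.65, adjusted p = 0.036, and 2.56 without tumour 2). DESeq2 called 10 risers of this list and the 6 libraries alone 12 risers and 1 faller; without tumour 2, tumour 3 or any 1 normal brain edgeR called 0.

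Of 17 endothelial markers 5 rose and 0 fell (1.57% of all genes rose), with a median of 1.06. Vwf, the clotting factor stored by endothelium (chr6:125546774-125686679), was at 59.2, 78.5 and 65.2 CPM against 24.5, 18.2 and 19.5 CPM (1.71, SE 0.27, adjusted p = 0.023). Kdr, the main VEGF receptor (chr5:75932827-75978458), was at 28.9, 30.5 and 39.8 CPM against 12.1, 13.4 and 13.2 CPM (1.35, SE 0.23, adjusted p = 0.024). For these genes tumour 1 lay close to the other tumours, unlike for the mitosis genes. Esam (1.08, SE 0.18, adjusted p = 0.024), Tie1 (1.31, adjusted p = 0.037) and Pecam1 (1.07, adjusted p = 0.035) rose too. Slco1a4, a transporter of the blood-brain barrier, went the other way without passing, at 38.2, 22.7 and 31.6 CPM against 44.3, 43.8 and 42.7 CPM (-0.50, SE 0.21, adjusted p = 0.22). Abcb1a, an efflux pump of the barrier, overlapped (0.23, adjusted p = 0.61). These 2 were picked after their values were seen. DESeq2 called 8 endothelial markers (5.59% of all genes rose there) and the 6 libraries alone 10 (6.64%).

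Of 12 markers of pericytes and vascular smooth muscle 5 rose and 0 fell (1.57% of all genes rose), with a median of 1.17. Of the 5, 1 is Cspg4, which precursor cells share. Rgs5, a marker of pericytes (chr1:169655501-169695813), was at 148, 250.3 and 214 CPM against 84.8, 92.2 and 94.3 CPM (1.17, SE 0.18, adjusted p = 0.022). Mcam, an adhesion molecule of pericytes and endothelium (chr9:44134469-44142727), was at 49.4, 86.5 and 67.3 CPM against 17.8, 18.7 and 18.7 CPM (1.88, SE 0.27, adjusted p = 0.022). The potassium channel subunits Abcc9 (2.15, adjusted p = 0.035) and Kcnj8 (2.14, adjusted p = 0.035), which form 1 channel in pericytes, rose by like amounts. DESeq2 and the 6 libraries alone each called 6. Of 11 markers of fibroblasts and meninges 1 rose (1.57% of all genes rose), Pdgfra, which precursor cells also carry, and the median was 0.42. Col1a1, a defining fibroblast gene, overlapped at 25.4, 60.2 and 26.6 CPM against 11.2, 21.6 and 27.6 CPM.

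Of 19 genes of hypoxia and glycolysis 2 rose and 0 fell (1.57% of all genes rose), with a median of 0.47. Adm, which encodes the vessel-dilating peptide adrenomedullin, was at 5.37, 19.0 and 12.985 CPM against 0.924, 1.10 and 0.788 CPM (3.71, SE 0.84, adjusted p = 0.047). Ddit4, an inhibitor of mTORC1, was at 31.8, 41.3 and 32.9 CPM against 18.016, 13.5 and 12.3 CPM (1.27, SE 0.25, adjusted p = 0.029). Vegfa, the vessel growth factor, was at 66.1, 199.5 and 173 CPM against 50.6, 50.0 and 48.9 CPM without passing (1.55, SE 0.41, adjusted p = 0.070). All 3 genes had tumours above normal brains, and in Vegfa tumour 1 was close to the normal level. DESeq2 and the 6 libraries alone each called 4.

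**Figure D3:**
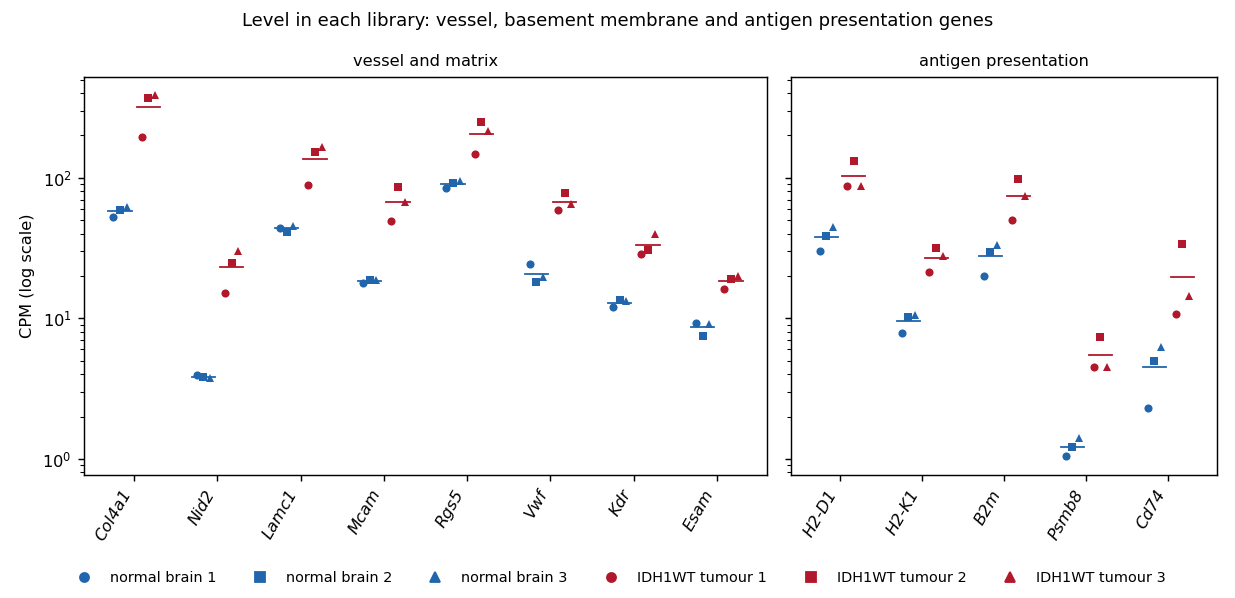
CPM of each library on a log axis for 8 genes of vessels and basement membrane (left) and 5 genes of antigen presentation (right), with normal brains in blue, IDH1WT tumours in red and a line at each group's mean. All 3 tumours lie above all 3 normal brains in each of the 13 genes, with Col4a1 at 196.54 to 387 CPM against 52.2 to 61.8 CPM.

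Several genes that present antigen on MHC class I rose. Of 11 tested, 4 rose and 0 fell (1.57% of all genes rose), with a median of 1.21. H2-D1, a classical class I heavy chain (chr17:35262730-35267499), was at 87.1, 133 and 88.0 CPM in tumours and 30.0, 38.7 and 44.5 CPM in normal brains (1.44, SE 0.22, adjusted p = 0.022). H2-K1, its companion (chr17:33996017-34000347), was at 21.4, 31.7 and 27.8 CPM against 7.85, 10.2 and 10.5 CPM (1.49, SE 0.25, adjusted p = 0.024). H2-K1 and H2-D1 are near-identical in part, and how reads matching both were counted is not given in the sources used here, so each value is uncertain. B2m, the light chain (1.42, SE 0.30, adjusted p = 0.037), and Psmb8, a subunit of the immunoproteasome (2.13, SE 0.36, adjusted p = 0.024), rose with them. DESeq2 called 7 of the 11. Of 6 class II genes 1 rose (1.57% of all genes rose), Cd74, the invariant chain. Cd74 was at 10.7, 34.0 and 14.5 CPM against 2.31, 4.94 and 6.21 CPM (2.11, SE 0.48, adjusted p = 0.047, and 1.47 without tumour 2). The class II chains H2-Aa (1.55, adjusted p = 0.066) and H2-Ab1 (1.87, adjusted p = 0.074) did not pass in edgeR, and DESeq2 called 3 of the 6.

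Of 18 interferon response genes 2 rose and 0 fell (1.57% of all genes rose), with a median of 1.28: the viral RNA sensor Ddx58 (1.74, SE 0.39, adjusted p = 0.045) and Oasl2 (2.03, SE 0.46, adjusted p = 0.048). Ddx58 was at 8.08, 19.5 and 14.5 CPM in tumours and 4.85, 3.73 and 3.94 CPM in normal brains. Ifit2 was at 19.7, 37.9 and 24.7 CPM against 8.78, 10.5 and 9.28 CPM without passing (1.52, SE 0.36, adjusted p = 0.052). In 14 of the 18 the tumours lay above all normal brains, as they did for 17.4% of all genes. DESeq2 called 7 higher (5.59% of all genes) and voom 13 (10.2%).

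Few markers of immune cells passed the test. Among 18 microglia markers edgeR called 0, with 1 at an unadjusted p under 0.05; DESeq2 called 0, the 6 libraries alone 5 and voom 6, and the median was 0.48. The summed level of the microglia markers was 369, 269 and 401 CPM in tumours and 171, 182 and 289 CPM in normal brains, and the groups overlapped. P2ry12, a defining gene of resting microglia, was at 14.9, 7.93 and 17.972 CPM against 16.976, 14.7 and 21.9 CPM (-0.39, adjusted p = 0.73). It was the 1 marker of the 18 with a log2 fold change below 0. The other 17 were above 0, up to 1.38, without passing. In 5 of the 18 every tumour lay above every normal brain, which was so for 17.4% of all genes. C1qc, 1 of these 5, was at 24.1, 19.3 and 31.2 CPM against 6.93, 7.46 and 14.5 CPM (1.36, SE 0.63, adjusted p = 0.27). Among 12 macrophage markers edgeR called 0, with 4 at an unadjusted p under 0.05, DESeq2 called 1 and the 6 libraries alone 3 of 11. The median was 1.19, and 11 of the 12 were above 0. In 7 of the 12 every tumour lay above every normal brain (17.4% of all genes). Lyz2, the lysozyme of myeloid cells, was at 16.2, 20.975 and 22.1 CPM against 2.77, 3.84 and 7.18 CPM (2.08, SE 0.76, adjusted p = 0.17). Only 3 of 12 T cell markers had enough counts to test, and edgeR, DESeq2 and voom called 0 of them, with 0 at an unadjusted p under 0.05. Cd3e had 5, 17 and 3 counts in the tumours and 4, 6 and 3 in the normal brains. The part of immune cells in the antigen presentation values was not tested.

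Neuronal genes were lower in the tumours by small amounts that mostly did not pass. The 11 neuronal lists held 184 distinct genes tested. Of these 172 had a log2 fold change below 0, with a median of -0.53 against -0.01 over all genes, 1 fell (0.152% of all genes fell) and 0 rose in edgeR. In 101 of the 184 (54.9%) every tumour lay below every normal brain, against 14.5% of all genes. The medians ran from -0.81 for cerebellar neurons over -0.67 for the postsynaptic density, -0.65 for excitatory neurons, -0.62 for synaptic vesicles, -0.57 for pan-neuronal and for inhibitory markers to -0.33 for striatal neurons. The ion channel and receptor lists lay between, at -0.52 for potassium channels, -0.50 for sodium and calcium channels, -0.48 for glutamate and -0.46 for GABA receptors. The normal brains' region is not given, so differences among regional lists cannot be told apart from where the tissue was cut.

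Rbfox3, which encodes the neuronal nuclear marker NeuN, shows the form of the difference: 114, 49.1 and 113 CPM in tumours 1, 2 and 3 and 176, 174 and 167 CPM in normal brains (-0.90, SE 0.35, adjusted p = 0.19). Tumour 2 was the lowest by far, and all tumours lay below all normal brains. Shank3, a scaffold of excitatory synapses, was at 141, 96.5 and 175 CPM against 321, 267 and 238 CPM (-0.9997, SE 0.26, adjusted p = 0.065). Unc13a, which primes synaptic vesicles, was at 203, 120.0 and 222 CPM against 372, 345 and 334 CPM (-0.95, SE 0.30, adjusted p = 0.11). Kcnh3, a potassium channel of forebrain neurons, was at 51.952, 24.9 and 23.2 CPM against 82.3, 78.3 and 79.99 CPM (-1.26, SE 0.32, adjusted p = 0.066). None of these 4 passed in edgeR, and all 4 had groups that did not overlap. The summed level of the 20 synaptic vesicle genes was 9671, 5096 and 7409.9 CPM in the tumours and 11552, 11047 and 11371 CPM in the normal brains, so tumour 1 had the most and tumour 2 the least, the reverse of the order for mitosis genes. DESeq2 called 4 of the 20 postsynaptic density genes lower (1.55% of all genes) and voom 10 (6.65%). Of the neuronal lists, this had the most members lower at an unadjusted p under 0.05 in edgeR, 10. Excitatory and striatal neurons had 0.

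Cacnb3, the neuronal list member that fell, encodes a beta subunit of voltage-gated calcium channels (chr15:98630840-98644529). It was at 75.6, 58.0 and 58.6 CPM in tumours and 121, 105 and 119.6 CPM in normal brains (-0.84, SE 0.18, adjusted p = 0.042). Nr4a3, a transcription factor of the immediate early class (chr4:48045153-48086447), also fell, from 43.3, 38.9 and 29.1 CPM to 19.7, 18.7 and 15.996 CPM (-1.03, SE 0.19, adjusted p = 0.024). It was the 1 called gene of 15 immediate early genes (0.152% of all genes fell), whose median was -0.38. The tumours were close together for Nr4a3, and the spread lay among the normal brains.

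The other fallers are given for genes with a mean log2 CPM of 3 or more, an approved-style symbol and groups that do not overlap, so that all tumours lie below all normal brains by choice. Some called genes outside these limits fell further, among them A830036E02Rik (-5.13) and Rps3a1 (-2.80). Celf3, an RNA-binding splicing factor of neurons (chr3:94478295-94492198), was at 40.9, 27.7 and 34.0 CPM against 82.8, 73.3 and 62.6 CPM (-1.09, SE 0.23, adjusted p = 0.036). Mir124a-1hg (chr14:64587331-64593961), a host transcript of the neuronal microRNA miR-124, was at 105, 79.0 and 141 CPM against 235, 229 and 194 CPM (-1.02, SE 0.20, adjusted p = 0.033). Hdac5, a class II histone deacetylase (chr11:102194432-102230166), was at 90.054, 61.7 and 78.2 CPM against 147, 143 and 129 CPM (-0.86, SE 0.15, adjusted p = 0.024), which is a 1.82-fold fall. In each of the 3 genes tumour 2 was the lowest library. The rest were Fcho1 (-1.25), Dlx6os1 (-1.10), Ablim3 (-1.07), Zfr2 (-0.97), Dgkz (-0.93), Tspoap1 (-0.92), Dalrd3 (-0.91), Ankrd13d (-0.88), Ssbp4 (-0.86) and Bicdl1 (-0.80), with adjusted p from 0.026 to 0.047. Dlx6os1 is an antisense transcript, and with the strand setting not given its reads cannot be told apart from those of its partner.

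**Figure D4:**
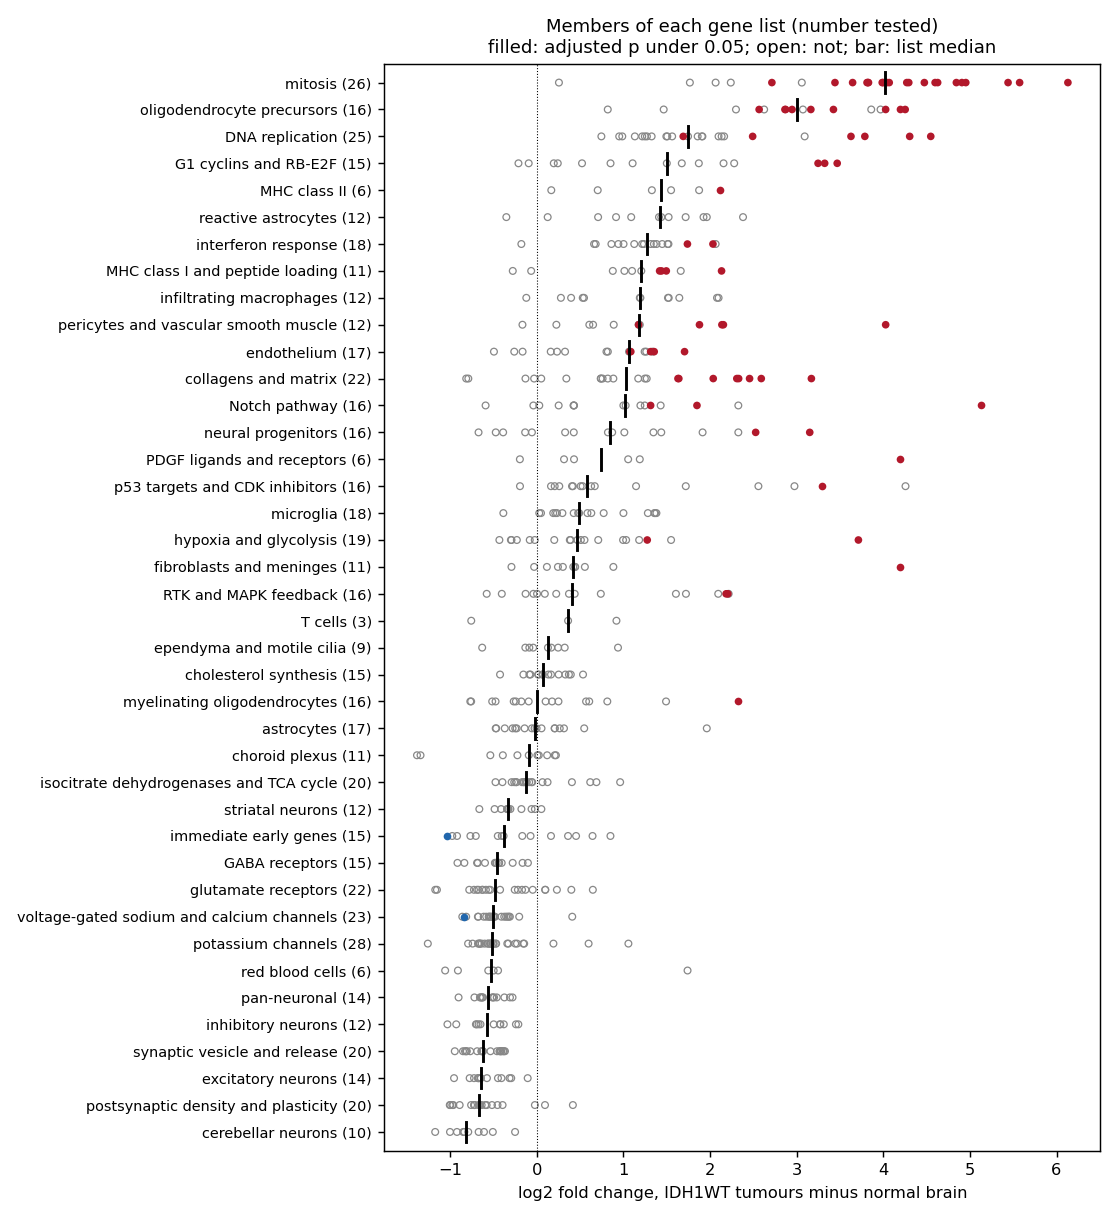
Each point is a gene of 1 of 40 lists, by its log2 fold change in IDH1WT tumours less normal brain, filled where its adjusted p from edgeR was under 0.05, with a bar at the list's median. The bars run from 4.02 for mitosis to -0.81 for cerebellar neurons, and the 2 filled points left of 0 are Nr4a3 and Cacnb3.

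**Figure D5:**
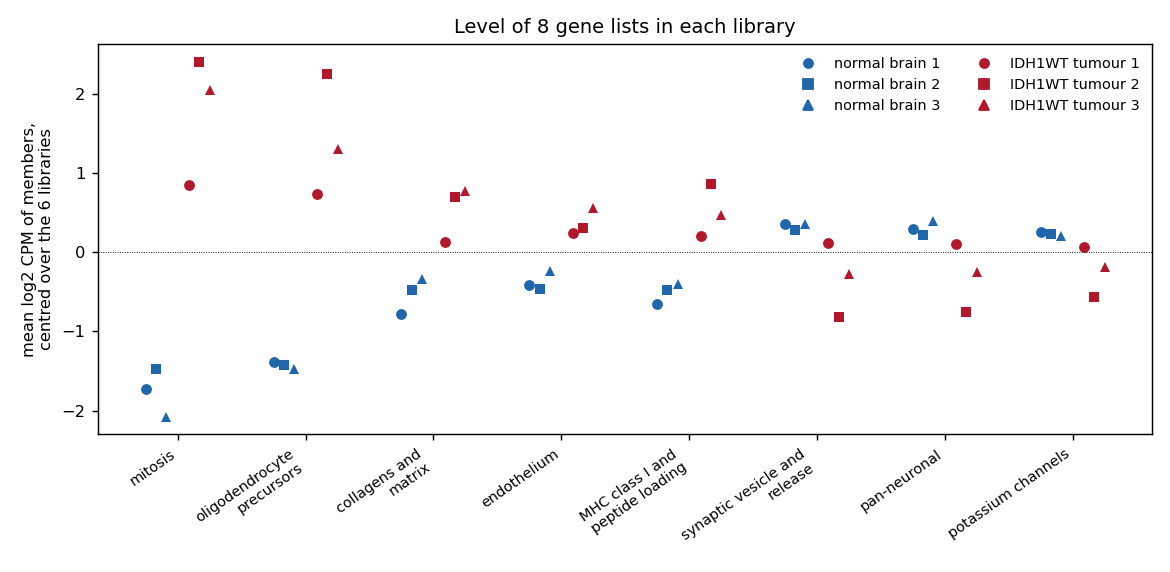
Mean log2 CPM of the members of 8 lists in each library, centred on the mean of the 6 libraries for each gene, with normal brains in blue and IDH1WT tumours in red. Tumour 1 (red circle) lies between normal brain and the other tumours for mitosis, precursor and neuronal lists, and tumour 2 (red square) lies farthest from normal brain for mitosis (2.40), precursors and the neuronal lists.

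Metabolic lists were near 0. Of 20 genes of the isocitrate dehydrogenases and the TCA cycle edgeR called 0, with 2 at an unadjusted p under 0.05, and the median was -0.12; DESeq2, the 6 libraries alone and voom each called 2. Idh1 (0.96, adjusted p = 0.064) was the highest of the list, and the mitochondrial Idh2 was at 22.8, 22.4 and 24.7 CPM against 15.2, 16.9 and 20.6 CPM (0.40, SE 0.23, adjusted p = 0.37). Aco1, a cytosolic aconitase that also binds iron-response elements, was at 36.247, 38.047 and 38.6 CPM against 23.2, 22.0 and 24.9 CPM (0.69, SE 0.16, adjusted p = 0.055). Of 15 genes of cholesterol synthesis edgeR called 0, with 1 at an unadjusted p under 0.05, DESeq2 called 0 and voom 1, and the median was 0.07.

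Markers of other tissue that a block could hold were read as well. Of 11 choroid plexus markers edgeR, DESeq2 and voom called 0, with 1 at an unadjusted p under 0.05. Ttr, which encodes the choroid plexus protein transthyretin, ranged from 1.32 to 153 CPM among tumours and from 95.9 to 261 CPM among normal brains. Of 9 markers of ependyma edgeR and DESeq2 called 0 and voom 1 lower, with 2 at an unadjusted p under 0.05. Of 6 red cell genes edgeR, DESeq2 and voom called 0, with 0 at an unadjusted p under 0.05. The summed red cell level was 74.3 to 168 CPM in tumours and 114 to 219.9 CPM in normal brains.

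To see whether these differences were particular to IDH1WT tumours, the group was compared with the mean of the IDH1_R132H and PDGFA groups in the same fit. In edgeR 0 of 17812 genes (0%) were called, with 457 at an unadjusted p under 0.05; voom called 0 and DESeq2 2, Rps3a1 (-2.9963) and Abca8a (1.59). Rps3a1 and Rps3a3 are near-identical copies, so both are uncertain. Without the library PDGFA 1 edgeR called Rps3a3 (3.54), and without any other single library 0. This contrast includes IDH1_R132H 3 and PDGFA 1, with 47.7% and 20.3% of counts in ribosomal-RNA-like loci. With both left out, in a fit added after the data were seen, edgeR called Rps3a1 (-3.38) and Rps3a3 (3.89). The summed precursor markers stood at 586, 1388 and 3616 CPM in PDGFA 1, 2 and 3, and at 509 to 531 CPM in normal brains. The list medians of this contrast were 0.27 for mitosis, 0.20 for precursor markers, 0.21 for collagens and matrix, 0.24 for endothelium and -0.06 for MHC class I. Others lay farther from 0: 0.57 for pericytes and 0.52 for choroid plexus, -0.54 for immediate early genes and -0.80 for red cells. Rgs5 (0.60, SE 0.15, unadjusted p = 0.0019) and Nr4a3 (-0.67, SE 0.16, unadjusted p = 0.0015) differed in edgeR without passing over all genes. Mki67 was at 57.0, 95.0 and 131 CPM in the IDH1_R132H tumours and 65.4, 67.9 and 338 CPM in the PDGFA tumours, which overlap the IDH1WT values (0.16, SE 0.54). Pdgfra was at 1360.1, 1563.7 and 643 CPM in the IDH1_R132H tumours and 81.2, 247 and 814 CPM in the PDGFA tumours (0.41, SE 0.55). Col4a1 was at 189, 281 and 260.1 CPM and 125, 96.5 and 218 CPM in those groups (0.75, SE 0.26, unadjusted p = 0.013), a difference that did not pass over all genes. The intervals of these differences are wide, and a missed threshold does not show that the tumour groups are alike.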

How the data were processed

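The members and the gene lists were chosen with earlier results of these data known. Per the submitters' processing notes, the authors' tools were STAR 2.5.2b for GRCm38, featureCounts 1.5.1 of Subread, and DESeq2 1.16.1. Not given in the sources used here are the annotation, the strand setting and the handling of multi-mapped reads. The deposited table of raw counts per gene was the input of every main result. A second deposited table of log2 values, regularized log by its name, served as an alternative only.

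Groups came from the tumour genotype and tissue labels, and libraries were numbered in record order, which pairs nothing. Symbols and coordinates came from GENCODE M21, which named 49326 of 49671 genes. In R 4.3.3, edgeR 4.0.16 fitted a robust quasi-likelihood model with TMM scaling to 12 libraries in 4 groups (8 residual degrees of freedom) after filterByExpr (minimum count 10, minimum total 15), and p-values were Benjamini-Hochberg adjusted over 17812 genes, called under 0.05 with no fold minimum. Adjusted p-values are edgeR's unless another tool is named, and the list counts carry no test. CPM are counts scaled to the TMM-adjusted library size. TMM assumes that most genes do not change, and FFPE RNA is fragmented, so values describe what was recovered. The median SE of a log2 fold change was 0.283. Alternatives used DESeq2 1.42.0, limma 3.58.1 (voom, and the deposited log2 values), RLE factors, no filter, 6 libraries, removal of ribosomal-RNA-like loci and single libraries left out. The steps were tested on simulated counts.

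Genes named are the 15 largest rises and 15 largest falls among called genes that have non-overlapping groups, a mean log2 CPM of 3 or more and an approved-style symbol; the 3 members of each of 40 lists with the smallest p; and a short list of glioma genes. Others were named after their values were seen: the remaining called members of lists, unpassed members given as contrast, A830036E02Rik, Xist, Ddx3y, Rps3a1, Rps3a3, Abca8a and the genes of the closing section. Promoters are RefSeq's table on GRCm38.p6, first entry of each gene. Some items are not reported here.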

Additional observations from a re-analysis of the deposited data

How the results depend on the processing

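The count of genes called between IDH1WT tumours and normal brain was 307. It was 1555 with no filter on low counts, 1426 in the 6 libraries alone, 1300 without IDH1_R132H replicate 3 and PDGFA replicate 1, 1271 with DESeq2, 3008 with voom and 49 with limma on the deposited log2 values. Leaving out 1 library of the 6 gave 0 to 687 calls and 1 of the other 6, added after the data were seen, gave 140 to 1090, with smallest adjusted p-values of 0.083 without IDH1WT 2, 0.058 without IDH1WT 3 and 0.13 without normal brain 2; the cause was not tested. With normal brains 1 and 2 summed, an alternative chosen after seeing the data, the count was 0 with 2314 genes at an unadjusted p under 0.05. RLE factors (337) and removal of ribosomal-RNA-like loci (323) stayed within 1.5 times. The share of calls that were higher was 91.2% in the main fit, 77.9% in the 6 libraries, 78.3% with DESeq2 and 60.6% with voom. Against the other tumours the count was 0, and 113 with no filter, 2 with DESeq2 and 0 to 1 on leaving out 1 library, and 2 without IDH1_R132H replicate 3 and PDGFA replicate 1 together, also added after. The 60 called genes among the 143 named by the stated rules kept their direction in each of these settings. Genes named only after their values were seen are not counted among them. Dnah5, a gene of motile cilia that was not called (0.25), turned to -0.027 with voom and ranged from -0.083 without IDH1WT 2 to 0.47 without IDH1WT 3. The deposited log2 values gave smaller fold changes, as for Mki67 (2.97) and Top2a (2.76). No paired analysis was possible because the labels give no replicate numbers that the groups share.

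Depth limits the low genes: 9 of 12 T cell markers, Cdkn2a and other genes under the filter could not be tested.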

Other observations

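These called genes outside the lists were chosen after their values were seen. Angpt2, a ligand of sprouting endothelium that loosens vessels, was at 12.5, 26.6 and 28.9 CPM in IDH1WT tumours 1, 2 and 3 and at 0.577, 1.32 and 1.2253 CPM in normal brains 1, 2 and 3 (4.41, SE 0.57, adjusted p = 0.022 in edgeR). Esm1, a proteoglycan of endothelial tip cells, was at 3.91, 12.1 and 10.1 CPM against 0.462, 0.439 and 0.0875 CPM (4.72, SE 0.70, adjusted p = 0.022). Apold1, an endothelial gene induced by stress, was at 19.5, 23.3 and 22.1 CPM against 7.97, 5.71 and 4.73 CPM (1.82, SE 0.22, adjusted p = 0.022). In these 3 genes every tumour lay above every normal brain, and for Apold1 the tumours were nearly level. Apold1 was the gene still called without normal brain 1 (2.04), and A830036E02Rik (-5.72) the one called without normal brain 3. The chemokine receptor Cxcr4 (3.25), the apelin receptor Aplnr (2.56) and Igfbp7 (2.39) also rose.

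C4b, a complement component, was at 81.3, 124 and 97.0 CPM in tumours against 11.9, 12.1 and 15.7 CPM in normal brains (2.93, SE 0.46, adjusted p = 0.022). Slc7a5, a transporter of large neutral amino acids, was at 85.4, 102 and 95.8 CPM against 43.5, 41.7 and 38.9 CPM (1.19, SE 0.18, adjusted p = 0.022). For Slc7a5 the 3 tumours differed little from each other, unlike for the mitosis genes. Rps3a1 fell against normal brain (-2.80, SE 0.63, adjusted p = 0.047), while its near-identical copy Rps3a3 did not pass (1.15, adjusted p = 0.43), and the reads of the pair cannot be told apart here.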
